A study of Solanum lycopersicum with 9 samples.

Results

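Young leaf primordium (LP) tissue of the tomato shoot apex was set against the peripheral zone (PZ) of the shoot apical meristem (SAM), the flank from which new leaves emerge. Genes entered the comparison when their normalized count was at least 6 in at least 1 of the 6 LP and PZ libraries, which 3601 of the 34866 genes did. All libraries came from untreated M82 SP+ seedlings of 12 to 14 days, grown with 11 h light and 13 h dark per day. Both zones were laser-captured from 10 µm cryosections of such seedlings, the LP from the abaxial (lower) side of a primordium, and sequenced as 3 libraries each (LP1 to LP3 and PZ1 to PZ3). A library came from 3 pooled sections. A further 3 libraries of the chlorophyll-less central zone (CZ1 to CZ3), where the stem cells lie, entered the fit and are given as background. No source says which plants gave which library, so p-values rest only on the spread between libraries. In the main fit this spread was pooled over genes of similar level. The zones were told apart under the microscope by chlorophyll fluorescence, so a difference in greening was built into the sampling.

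In the peripheral zone, cells leave the meristem and are recruited into leaves. KNOX proteins such as STM keep meristem cells undifferentiated and, in Arabidopsis, are switched off where a leaf starts. CUC proteins mark the boundary between meristem and organ, and YABBY proteins mark the abaxial side of the leaf. At the same time proplastids turn into chloroplasts, for which most proteins are encoded in the nucleus and imported, among them the antenna proteins (LHC), the photosystem subunits (PSA and PSB) and the small subunit of Rubisco (RBCS).

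A normalized count is the number of reads of a gene divided by a factor of its library, and 1 read was worth 0.432, 0.603 and 1.09 in LP1 to LP3, against 0.771, 0.740 and 0.690 in PZ1 to PZ3. The LP libraries held 97353, 78363 and 40286 reads on genes, against 58412, 62913 and 66596 in the PZ libraries. A value of 0 allows up to 3 reads, which is 1.29 to 3.28 normalized counts in LP and 2.07 to 2.31 in PZ, by counting error only. Replicates within a zone varied beyond sampling noise (chi-square per degree of freedom 2.84 to 3.91 over 9 pairs).

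Genes were sorted by how a difference arose. A change was counted as seen in all 3 libraries of a zone when the zone means differed by at least 1.5-fold on the log2(normalized count + 1) scale and every LP library lay above, or every LP library below, every PZ library. It was counted as resting on 1 library when the zones overlapped and the difference fell under 1.5-fold or turned round once a single library was left out. Other differences of at least 1.5-fold overlapped but did not hinge on a library, and the remaining genes differed by less. Changes in all 3 libraries were found for 386 genes (10.7% of those tested), 194 higher (5.39%) and 192 lower (5.33%) in LP. Resting on 1 library were 879 genes (24.4%), 416 higher (11.6%) and 463 lower (12.9%) in LP. Another 245 genes differed without hinging on a library, and 2091 differed by less than 1.5-fold. The log2 difference was above 0 in 1734 genes, with a median of −0.04. Without the 1.5-fold limit, the zones did not overlap in 425 genes (11.8%), 209 higher (5.8%) and 216 lower (6.0%) in LP. With 3 libraries against 3 and no zone difference, rank order alone would separate a share of about 0.1 of genes, near the 11.8% found. Separation alone thus does not mark a gene as differing between the zones. This sorting carries no test. In limma, fitted to all 9 libraries, 5 genes (0.139%) had an adjusted p of at most 0.05 together with a 1.5-fold change, 4 higher (0.111%) and 1 lower (0.0278%) in LP, and all 5 were changed in all 3 libraries. At an unadjusted p under 0.05, 144 genes were higher (4.0%) and 129 lower (3.58%) in LP. None of the 5 was called without LP1, by DESeq2, with no trend of the variance, or when a zone mean had to reach 6. Adjusted p values below are from limma.

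**Figure D1:**
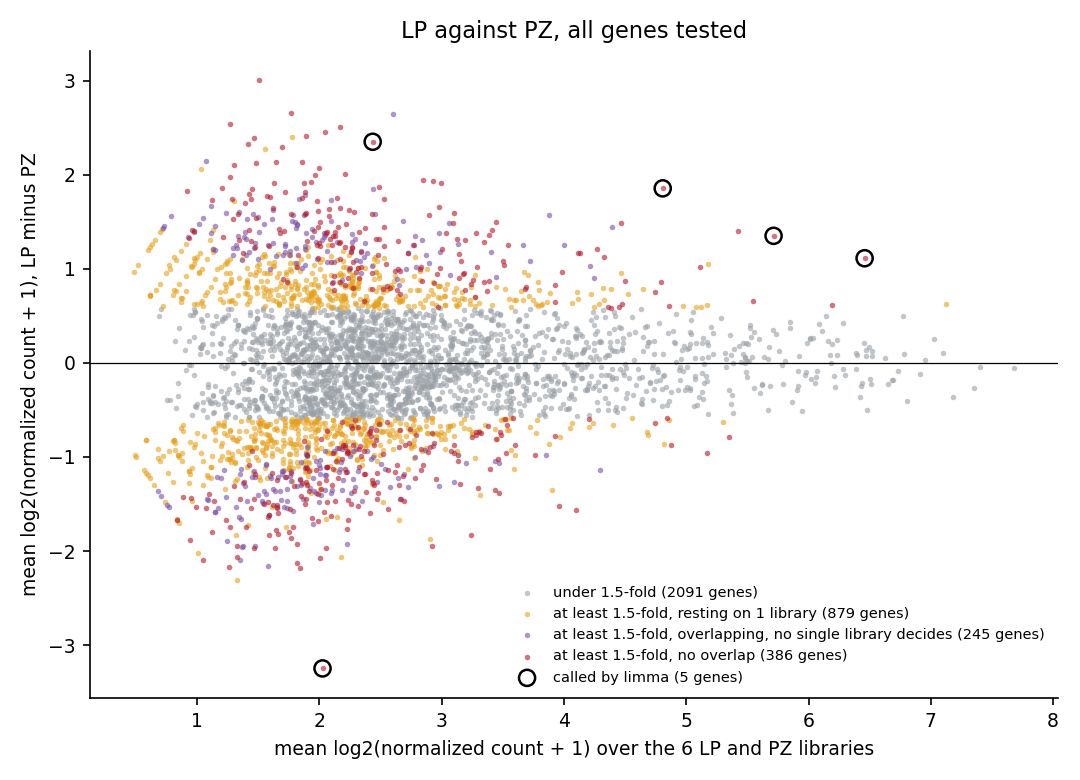
Each point is a gene tested (n = 3601), placed by its mean log2(normalized count + 1) over the 6 LP and PZ libraries (x axis) and by the LP mean minus the PZ mean on that scale (y axis); colors give the kind of change and rings the called genes. Differences resting on 1 library (879 genes) lie mostly at low levels, and 3 of the 5 called genes stand out at high ones.

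Among the called genes were both listed genes of the Rubisco small subunit, part of the enzyme that fixes CO2. RBCS Solyc02g085950.2 (chromosome 2, 48715436 to 48716662, genome build SL2.50, as are all positions here) had normalized counts of 84.64, 62.76 and 107.06 in the LP libraries, against 29.30, 29.61 and 37.24 in the PZ libraries. Every LP library lay above every PZ library, and the transcript rose by 1.35 on the log2 scale (standard error 0.30, adjusted p = 0.0108). RBCS Solyc03g034220.2 (chromosome 3, 5922139 to 5925072) had 133.44, 104.40 and 151.85 in LP, against 47.03, 58.49 and 73.79 in PZ, and rose by 1.11 (standard error 0.26, adjusted p = 0.0247). In the CZ libraries both varied widely, at 14.42, 79.36 and 27.22 for the first gene and 26.83, 74.03 and 45.94 for the other, with CZ2 highest each time. RBCS genes are near-identical copies that reads of 36 bp may not tell apart, so the separate values are uncertain. Together they took 0.519%, 0.354% and 0.589% of the normalized counts in LP, against 0.170%, 0.189% and 0.242% in PZ. Both calls were lost without LP1 or LP3, Solyc03g034220.2 also without PZ1 or PZ2. Over the 21 alternatives their adjusted p ranged from 0.000409 to 0.736 and from 0.000864 to 0.629.

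The other called genes have no name in the sources used here. Solyc07g043420.2 (chromosome 7, 57179845 to 57181770) had 79.46, 51.30 and 34.96 in LP, against 11.56, 31.09 and 6.90 in PZ, and rose by 1.86 (standard error 0.37, adjusted p = 0.00182). The zones came closest at LP3 and PZ2, and without PZ3 or LP1 the call was lost (adjusted p 1.75e-05 to 0.556 over the alternatives). Solyc08g074630.1 (chromosome 8, 58755673 to 58757636) had 11.66, 7.85 and 15.29 in LP, against 2.31, 0.74 and 1.38 in PZ, and rose by 2.35 (standard error 0.58, adjusted p = 0.0415). Its CZ values of 9.52, 7.34 and 8.51 lay with those of LP, so the PZ was the low zone. This call was lost in 10 of the 21 alternatives, without CZ1, PZ2, PZ3, LP1 or LP3 among them (adjusted p 0.0138 to 0.319).

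The only called gene that fell shows how far a single library can carry a call. Solyc03g111170.2 (chromosome 3, 61817681 to 61823869) had 1.3, 0 and 0 in LP, against 117.19, 4.44 and 2.07 in PZ. All PZ libraries lay above all LP libraries, but PZ1 exceeded the other PZ libraries by far, with 152 reads against 6 and 3. The fitted log2 difference of −3.25 had a standard error of 0.81 (adjusted p = 0.0415), and without PZ1 no library reached the minimum count. Without any of the LP libraries the call was also lost (adjusted p 4.41e-05 to 0.536 over the alternatives). The fit gave a gene's own spread no weight, so such a gene can be called.

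Differences that rest on 1 library were most frequent among genes with few reads. They made up 43.8% of the 434 genes with a mean normalized count under 2.5, and 26.5%, 21.0%, 15.1% and 8.64% in the classes 2.5 to 5, 5 to 10, 10 to 20 and over 20. A gene with a mean under 2.5 could reach the minimum of 6 only through few high libraries. The high share in the lowest class was thus partly built in by the filter. Changes in all 3 libraries varied less over the same classes, at 8.76%, 12.4%, 10.3%, 9.35% and 7.97%. The median difference in size was 0.79 on the log2 scale for changes resting on 1 library and 1.24 for those in all 3 libraries. At an unadjusted p under 0.05 were 32 of the 879 genes and 170 of the 386. Both contrasts largely follow from the sorting, which used the same LP and PZ values. Any of the libraries could be the one that decided. LP1, the deepest, decided for 81 genes (9.2%), LP2 for 140 (15.9%) and LP3, the shallowest, for 181 (20.6%). The PZ libraries decided for 163 (18.5%), 183 (20.8%) and 131 (14.9%). LP3 was at 0 for 43 of its 181 genes, against 6 of the 81 of LP1.

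**Figure D2:**
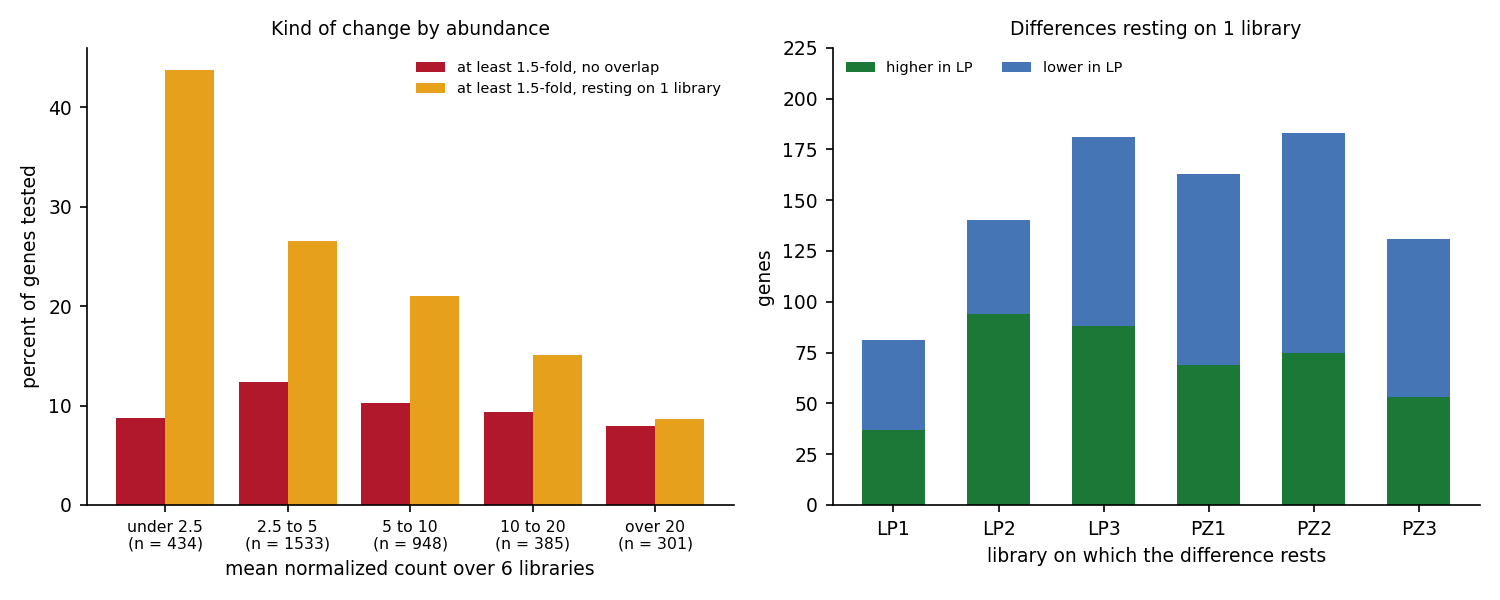
Left, percent of genes tested (y axis) with a change in all 3 libraries or resting on 1 library, by mean normalized count over 6 libraries (x axis). Right, number of genes (y axis) whose difference rests on each library (x axis), split by direction. The share resting on 1 library falls from 43.8% to 8.64% with abundance, and LP1 decides least often (81 genes). The minimum count partly sets the share in the lowest class.

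The largest of these differences came from a high value in a single library. Solyc05g010540.2 had 0.43, 0 and 0 in LP, against 0, 173.98 and 0 in PZ, so 235 reads in PZ2 stood beside 1 read in the other 5 libraries. Solyc05g051280.2 had 0.86, 4.83 and 0 in LP, against 134.15, 1.48 and 1.38 in PZ. Solyc05g053400.1 had no read in LP and 95 in PZ3 (65.51), with 0 in PZ1 and PZ2. In these 3 genes LP was lower by a log2 fold change of −2.31, −2.07 and −2.02 (adjusted p = 0.514, 0.348 and 0.614), although in each a single PZ library stood apart. The reverse was seen in LP. Solyc07g039320.2 had 0.86, 1.21 and 117.98 in LP, against 2.31, 0 and 0 in PZ (log2 fold change 2.4, adjusted p = 0.348). Solyc07g053030.2 had 84.21, 0 and 2.18 in LP, against 0, 0 and 1.38 in PZ (2.28, adjusted p = 0.514). Solyc10g017620.2 had 66 reads in LP3 (72.10) and none in any of the other 8 libraries (2.06, adjusted p = 0.633). These 6 genes, which have no name here, were the only ones resting on 1 library with a change over 4-fold, and their median of 151.5 reads over 6 libraries was well above the 34 of the whole kind. Over all genes tested, of any kind, a normalized count + 1 at least 4-fold above the next LP or PZ library was also counted. It was found for 9, 15 and 24 genes in LP1, LP2 and LP3, against 26, 27 and 23 in PZ1, PZ2 and PZ3. How molecular barcodes were collapsed is not given in the sources used here, and amplification of single molecules was not tested.

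**Figure D3:**
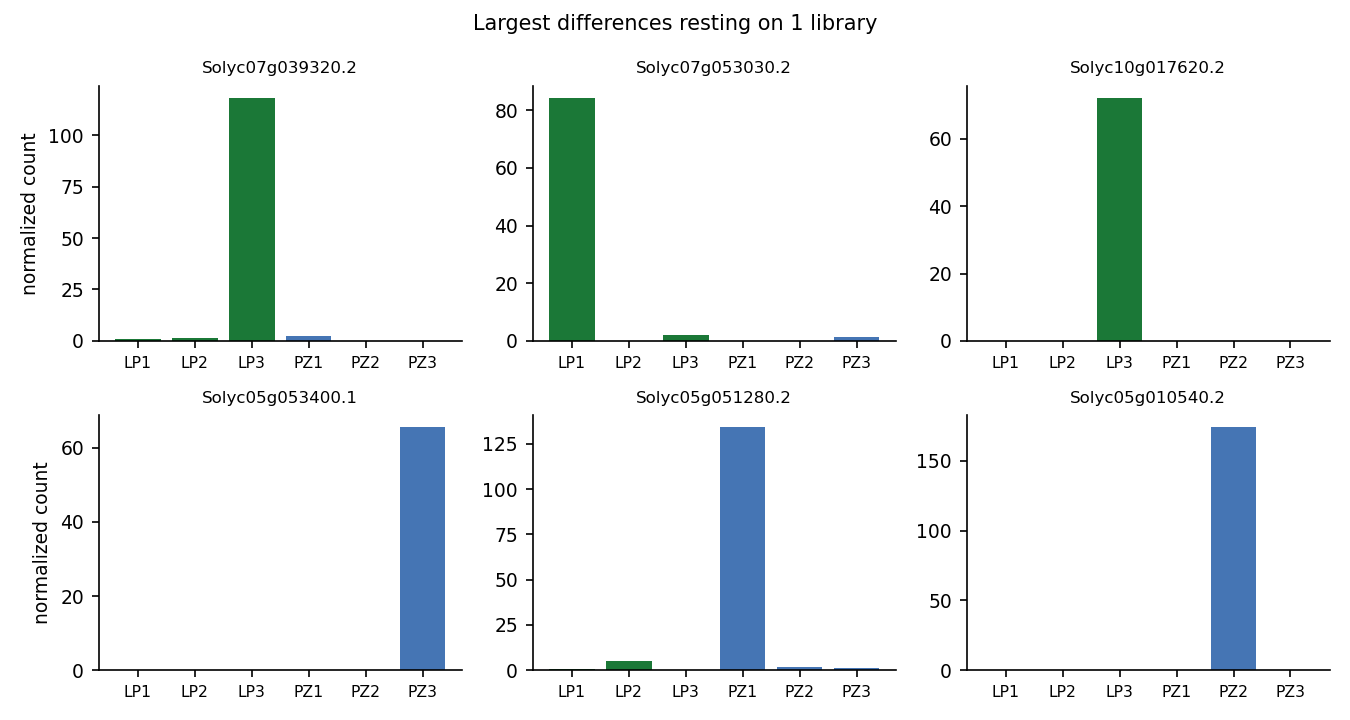
Normalized count (y axis) in each LP and PZ library (x axis, green LP and blue PZ) for the 6 genes with the largest difference resting on 1 library, 3 higher in LP (top) and 3 lower (bottom). In every panel a single bar, of 65.51 to 173.98, stands beside values of at most 4.83.

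Of the 386 genes changed in all 3 libraries, 309 stayed at least 1.5-fold apart when each library was left out in turn, 161 higher and 148 lower in LP. The largest of them without a name were as follows. Solyc02g083860.2 (chromosome 2, 47121664 to 47123927) had 20.73, 1.21 and 9.83 in LP and no read in PZ, at least 13.7-fold higher against 3 reads over the PZ libraries (log2 fold change 3.01, adjusted p = 0.168). Without LP1 that bound was 7.16-fold. Its LP2 value came from 2 reads. Solyc04g078140.2 (chromosome 4, 62965757 to 62967201) had 12.09, 7.85 and 4.37 in LP, against 0, 1.48 and 0 in PZ (2.66, adjusted p = 0.262). On the lower side, next to the called Solyc03g111170.2, Solyc05g012200.2 (chromosome 5, 5462850 to 5469178) had 0.43, 0.60 and 1.09 in LP, which is 1 read in each library, against 6.17, 4.44 and 10.34 in PZ (−2.18, adjusted p = 0.348).

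The CZ libraries had no part in sorting the genes, but the minimum count was asked of LP or PZ only. A gene could thus enter through its high zone alone, which favors CZ values near the low zone. The CZ mean lay nearer to PZ than to LP for 142 of the 194 genes higher in all LP libraries (73.2%). For 69 of them the CZ mean was below the PZ mean, for 115 it lay between the zones and for 10 above LP. Among the 192 genes lower in LP, the CZ mean lay nearer to PZ for 73 (38.0%), between the zones for 130, above PZ for 20 and below LP for 42. All CZ libraries were above all LP libraries for 46 of these 192 genes, and below them for 109 of the 194. Genes resting on 1 library had shares close to these, with the CZ mean nearer to PZ for 285 of the 416 higher (68.5%) and 182 of the 463 lower in LP (39.3%).

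The 56 nuclear genes for plastid proteins that the study lists as higher in LP than in CZ were all tested. That list was drawn up from these very samples, LP libraries included, and so is not independent evidence of its direction. Of these genes 28 were higher in all 3 LP libraries and 0 lower, where 5.39% and 5.33% of all genes were. Another 14 rested on 1 library (13 higher and 1 lower in LP), 6 differed without hinging on a library and 8 differed by less than 1.5-fold. The log2 fold change was above 0 in 54 of the 56 genes, with a median of 0.95 (−0.04 over all genes) and a range of −0.60 to 2.39. The RBCS genes were the only members called, and 24 were higher and 0 lower at an unadjusted p under 0.05. Together the list took 3.11%, 2.22% and 2.81% of the normalized counts in LP, against 1.13%, 1.43% and 1.72% in PZ, and 0.661%, 1.48% and 0.947% in CZ. In bulk tissue, more cells with chloroplasts and more of these transcripts per cell cannot be told apart. LP2 was the lowest LP library for 31 of the 56 genes and PZ1 the lowest PZ library for 29. Without PZ1, 38 of the 56 genes were at least 1.5-fold higher in LP, against 47 with all libraries, and the median was 0.76.

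Photosystem II (PSII) splits water and feeds electrons into photosynthesis. Of its 16 genes 6 were higher in all 3 LP libraries, 3 rested on 1 library, 2 differed otherwise and 5 were under 1.5-fold, with all 16 above 0 and a median of 0.73. PSBT had 53.55, 24.14 and 36.05 in LP, against 7.71, 13.33 and 17.24 in PZ. Every LP library exceeded every PZ library (log2 fold change 1.49, standard error 0.42, adjusted p = 0.107), and the gene was called when only LP and PZ libraries were fitted. The oxygen-evolving proteins, which hold the manganese cluster in place, differed among themselves. PSBO2 had 21.59, 14.48 and 16.39 in LP, against 4.63, 11.85 and 2.76 in PZ (1.49, adjusted p = 0.348). PSBP had 33.68, 25.95 and 29.50 in LP, against 13.11, 14.07 and 20.69 in PZ (0.88, adjusted p = 0.597). PSBO had 12.09, 10.86 and 10.92 in LP, against 6.94, 5.92 and 6.90 in PZ (0.70, adjusted p = 0.78), with replicates that barely varied. PSBR, the most abundant of the group, had 131.28, 122.51 and 132.18 in LP, against 73.24, 115.49 and 88.27 in PZ, so the zones separated but by less than 1.5-fold (0.50, adjusted p = 0.652). PSBQ overlapped between the zones and rested on PZ2 (0.59, adjusted p = 0.763).

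The LHCB genes encode the antenna that gathers light for PSII. Only 2 of 8 were higher in all 3 LP libraries, with a median of 0.86 over the 8. LHCB6 had 8.20, 7.85 and 6.55 in LP, against 2.31, 1.48 and 2.76 in PZ (1.44, adjusted p = 0.63). LHCB1.4 had 11.66, 7.24 and 15.29 in LP, against 6.94, 4.44 and 6.90 in PZ (0.77, adjusted p = 0.766). In the other LHCB genes the zones overlapped. In the 3 most abundant of these, LP2 was the lowest LP library and PZ3 the highest PZ library. LHCB2.4 had 29.36, 19.31 and 29.50 in LP, against 8.48, 9.62 and 20.69 in PZ (1.04, adjusted p = 0.514), and LHCB5, which rested on PZ1, had 37.57, 19.91 and 34.96 in LP, against 8.48, 16.29 and 23.45 in PZ (0.95, adjusted p = 0.514). The abundant LHCB1.3 Solyc03g005760.1 had 99.32, 54.92 and 103.78 in LP, against 47.80, 44.42 and 93.10 in PZ (0.50, adjusted p = 0.681). Its copy Solyc03g005770.1 had 12.95, 8.45 and 3.28 in LP, against 6.17, 4.44 and 6.90 in PZ (0.29, adjusted p = 0.922), and without LP1 the sign turned. LHCB3 had the same direction (1.00, adjusted p = 0.73), and LHCB4.2 differed by 0.19 (adjusted p = 0.932). Members of LHCB1 may share reads. The number of LHCB genes that separated the zones at 1.5-fold or more was 2, 6 and 2 without LP1, LP2 and LP3, and 3, 2 and 5 without PZ1, PZ2 and PZ3.

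Photosystem I (PSI) passes electrons on to ferredoxin. Of its 11 genes 5 were higher in all 3 LP libraries, 3 rested on 1 library, 1 differed otherwise and 2 were under 1.5-fold, with a median of 0.86. PSAK, which helps to attach the antenna, had 47.50, 45.26 and 52.44 in LP, against 13.88, 26.65 and 33.79 in PZ (1.02, standard error 0.35, adjusted p = 0.348). The copies of PSAH, where mobile antenna docks, had 10.36, 10.86 and 7.65 in LP, against 3.08, 1.48 and 2.07 in PZ for Solyc12g044280.1 (1.74, adjusted p = 0.444). For Solyc03g120640.2 they were 12.09, 10.86 and 13.11 in LP, against 5.40, 5.92 and 4.14 in PZ (1.09, adjusted p = 0.653). PSAE, the docking site of ferredoxin, had 30.23, 47.07 and 29.50 in LP, against 24.67, 28.13 and 16.55 in PZ, close to the 1.5-fold border (0.60, adjusted p = 0.711). Of the 4 antenna genes, 1 of the LHCA3 copies (Solyc10g007690.2) separated the zones, with 12.95, 10.26 and 15.29 in LP, against 4.63, 9.62 and 6.21 in PZ (0.86, adjusted p = 0.711). LHCA4 and PSAO, high in LP1 and LP3 but not in LP2, rested on PZ1 and LP1.

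**Figure D4:**
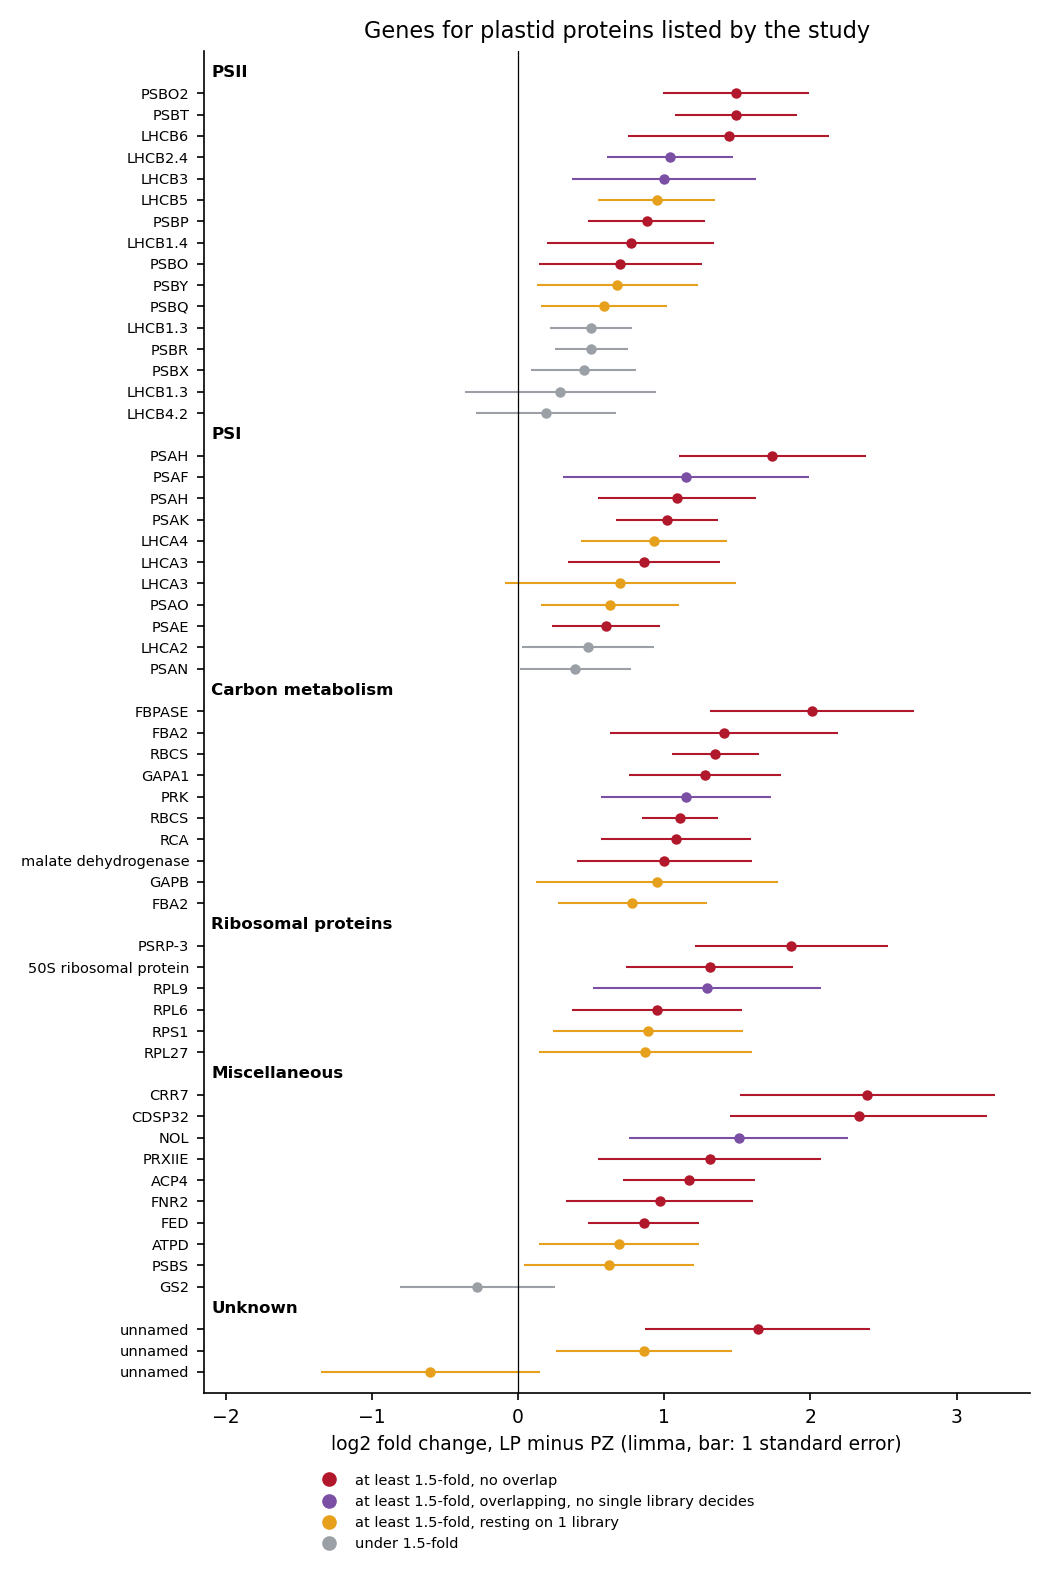
Log2 fold change between LP and PZ (x axis, limma, bars 1 standard error) of the 56 genes for plastid proteins listed by the study, grouped by function and ordered by size; colors give the kind of change. All but 2 lie above 0 (range −0.60 to 2.39), 28 separate the zones at 1.5-fold or more, and 14 rest on 1 library.

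Genes of carbon metabolism were, of the groups listed, the one with the largest share that separated the zones, 7 of 10, the RBCS genes included, with a median of 1.13 and none under 1.5-fold. FBPASE, a fructose bisphosphatase of the Calvin-Benson cycle, had 8.20, 7.85 and 8.74 in LP, against 0, 2.22 and 2.76 in PZ (2.01, adjusted p = 0.376). FBA2 Solyc01g110360.2, an aldolase of the same cycle, had 3.02, 4.83 and 9.83 in LP, against 1.54, 0.74 and 2.07 in PZ (1.41, adjusted p = 0.681). Its copy Solyc02g084440.2 overlapped and rested on PZ1 (0.78, adjusted p = 0.745). GAPA1, a glyceraldehyde phosphate dehydrogenase, had 15.11, 10.26 and 20.76 in LP, against 4.63, 5.18 and 6.90 in PZ (1.28, adjusted p = 0.514). Its partner GAPB rested on LP1, with 9.07, 3.62 and 1.09 in LP, against 0.77, 2.22 and 1.38 in PZ (0.95, adjusted p = 0.805). RCA, the activase that frees Rubisco of bound sugar phosphates, had 21.16, 13.28 and 13.11 in LP, against 6.94, 5.92 and 7.59 in PZ (1.08, adjusted p = 0.607). The malate dehydrogenase gene Solyc11g007990.1 had 9.07, 13.28 and 8.74 in LP, against 4.63, 5.92 and 3.45 in PZ (1.00, adjusted p = 0.711). PRK, which regenerates the acceptor of CO2, overlapped by 7.34 in LP1 against 7.59 in PZ3 (1.15, adjusted p = 0.657).

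Plastid ribosomes translate the genes of the plastid genome. Of 6 genes for their proteins 3 were higher in all LP libraries, 2 rested on 1 library and 1 differed otherwise (median 1.12). PSRP-3 of the small subunit had 6.91, 10.86 and 12.02 in LP, against 1.54, 2.22 and 2.07 in PZ (1.87, adjusted p = 0.396), with PZ values that came from 2 to 3 reads each. The gene Solyc10g081100.1 for a 50S protein had 20.30, 8.45 and 12.02 in LP, against 7.71, 1.48 and 6.90 in PZ (1.31, adjusted p = 0.56). RPL6 had 12.52, 10.26 and 12.02 in LP, against 5.40, 7.40 and 4.14 in PZ (0.95, adjusted p = 0.711). RPL9 differed in overlapping libraries (1.29, adjusted p = 0.711), RPS1 rested on PZ1 and RPL27 on LP1. Transcripts of the plastid genome itself, which mostly lack the poly(A) tails on which the method primes, overlapped between the zones in sum. They took 0.0308%, 0.0714% and 0.0769% of the normalized counts in LP, against 0.0634%, 0.0461% and 0.0676% in PZ. Only clpP and ycf1 reached the minimum. clpP, for a protease subunit, differed by 0.25 (adjusted p = 0.915), and ycf1 had 4.32, 6.03 and 4.37 in LP, against 10.02, 8.14 and 8.28 in PZ, lower in every LP library (−0.74, adjusted p = 0.763).

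Among the other genes of plastid proteins 6 of 10 separated the zones (median 1.07). CRR7, needed to assemble the NADH dehydrogenase-like complex, had 3.02, 5.43 and 8.74 in LP, against 0, 0.74 and 0 in PZ, where a single read was counted (2.39, adjusted p = 0.416). CDSP32, a thioredoxin-like protein of the redox defence, had 5.18, 3.62 and 6.55 in LP, against 0, 0 and 0.69 in PZ, again a single read (2.33, adjusted p = 0.5). ACP4, the acyl carrier of fatty acid synthesis, had 28.93, 27.16 and 19.66 in LP, against 10.02, 8.88 and 13.10 in PZ (1.17, adjusted p = 0.5). Ferredoxin FED had 38.0, 39.83 and 31.68 in LP, against 10.02, 25.91 and 28.27 in PZ, where PZ1 was low (0.86, adjusted p = 0.56). FNR2, which reduces NADP+ with ferredoxin, had 8.64, 7.24 and 7.65 in LP, against 2.31, 3.70 and 4.83 in PZ (0.97, adjusted p = 0.745). PRXIIE, a peroxiredoxin, had 6.05, 1.81 and 2.18 in LP, against 0, 0.74 and 1.38 in PZ (1.31, adjusted p = 0.701), while CZ2 held 12.67. GS2, glutamine synthetase, was the member with a name that lay below 0, with 10.36, 10.86 and 6.55 in LP, against 12.34, 9.62 and 11.72 in PZ (−0.28, adjusted p = 0.915). Of 3 genes of unknown function, Solyc06g068670.2 was higher in all 3 LP libraries (1.64, adjusted p = 0.607). Solyc02g049070.2, the other member below 0, rested on PZ3, with 1.73, 1.81 and 3.28 in LP, against 0, 2.22 and 34.48 in PZ (−0.60, adjusted p = 0.858).

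Regulators of the meristem, its boundaries and flowering had lower values in LP. The study lists them for a difference between LP and CZ, again on these LP libraries. Of 5 that could be tested, 3 were lower in all LP libraries and all 5 had a log2 fold change below 0, with a median of −1.22 and none called. CUC2 (chromosome 7, 65485289 to 65487633) had 2.59, 3.62 and 6.55 in LP, against 15.42, 18.51 and 16.55 in PZ. The zones lay far apart with 6 reads in each LP library, against 20 to 25 in PZ, and the log2 fold change of −1.83 (standard error 0.48) just missed the threshold (adjusted p = 0.0548). CUC2 was called without LP3 or CZ3. Its CZ values, 15.58, 20.01 and 7.66, spanned those of PZ. STM (chromosome 2, 45189213 to 45196303) had 1.3, 0.60 and 1.09 in LP, against 12.34, 1.48 and 4.83 in PZ (−1.55, standard error 0.65, adjusted p = 0.524). Every PZ library lay above LP, but PZ2 did so with 2 reads, against 3 reads in LP1 and 1 read each in LP2 and LP3. PZ2 thus lay above LP1 only through the factors of the libraries. Without PZ1 STM was lower by only 0.95 on the log2 scale, and no remaining LP or PZ library reached the minimum of 6. SVP, a repressor of flowering in Arabidopsis, had 2.16, 3.02 and 4.37 in LP, against 6.17, 5.92 and 5.52 in PZ (−0.75, adjusted p = 0.775). FD, the partner of florigen, has 2 genes on the list. Solyc02g061990.2 had 1.3, 1.21 and 2.18 in LP, against 9.25, 7.40 and 1.38 in PZ, where PZ3 fell among the LP values (−1.22, adjusted p = 0.672). Solyc02g083520.2 had 6.05, 7.85 and 6.55 in LP, against 20.82, 6.66 and 8.28 in PZ, a difference of −0.57 that came from PZ1 (adjusted p = 0.777). SPT and AP2 stayed under the minimum. SPT had 0.43, 1.81 and 1.09 in LP, against 5.40, 4.44 and 2.76 in PZ, and AP2 had 1.3, 1.21 and 2.18 in LP, against 3.85, 1.48 and 2.07 in PZ.

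Genes of leaf polarity and transport, with a hormone receptor gene grouped among them, went mostly the other way. Of these 5 genes 2 were higher in all LP libraries, none was called and the median was 1.17. The study lists them on these same libraries, for LP against CZ except GID1C, which is listed for PZ against CZ. YABBY1 (chromosome 1, 84714369 to 84718183) had 17.70, 22.33 and 40.42 in LP, against 6.94, 14.81 and 11.72 in PZ (1.17, standard error 0.45, adjusted p = 0.5). LP3 was the highest library and PZ1 the lowest. YABBY3, of the same abaxial family, had 8.64, 18.10 and 6.55 in LP, against 9.25, 8.14 and 2.07 in PZ, overlapped and rested on PZ3 (0.76, adjusted p = 0.775). CRK, an adapter protein linked to actin, had 4.75, 6.64 and 13.11 in LP, against 0, 0.74 and 1.38 in PZ, or 11 to 12 reads against at most 2 (2.41, standard error 0.82, adjusted p = 0.348). MDR1, an auxin exporter, had 11.66, 8.45 and 10.92 in LP, against 2.31, 1.48 and 10.34 in PZ, where only PZ3 reached the LP level (1.31, adjusted p = 0.609). The gibberellin receptor gene GID1C was lower, with 1.3, 2.41 and 0 in LP, against 0.77, 19.25 and 4.83 in PZ (−1.58, adjusted p = 0.667). Its PZ libraries spread from 0.77 to 19.25, with a mean of 8.28, against 0.823 in CZ. The study instead lists GID1C as down-regulated between PZ and CZ, and the cause of this contrast was not tested.

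**Figure D5:**
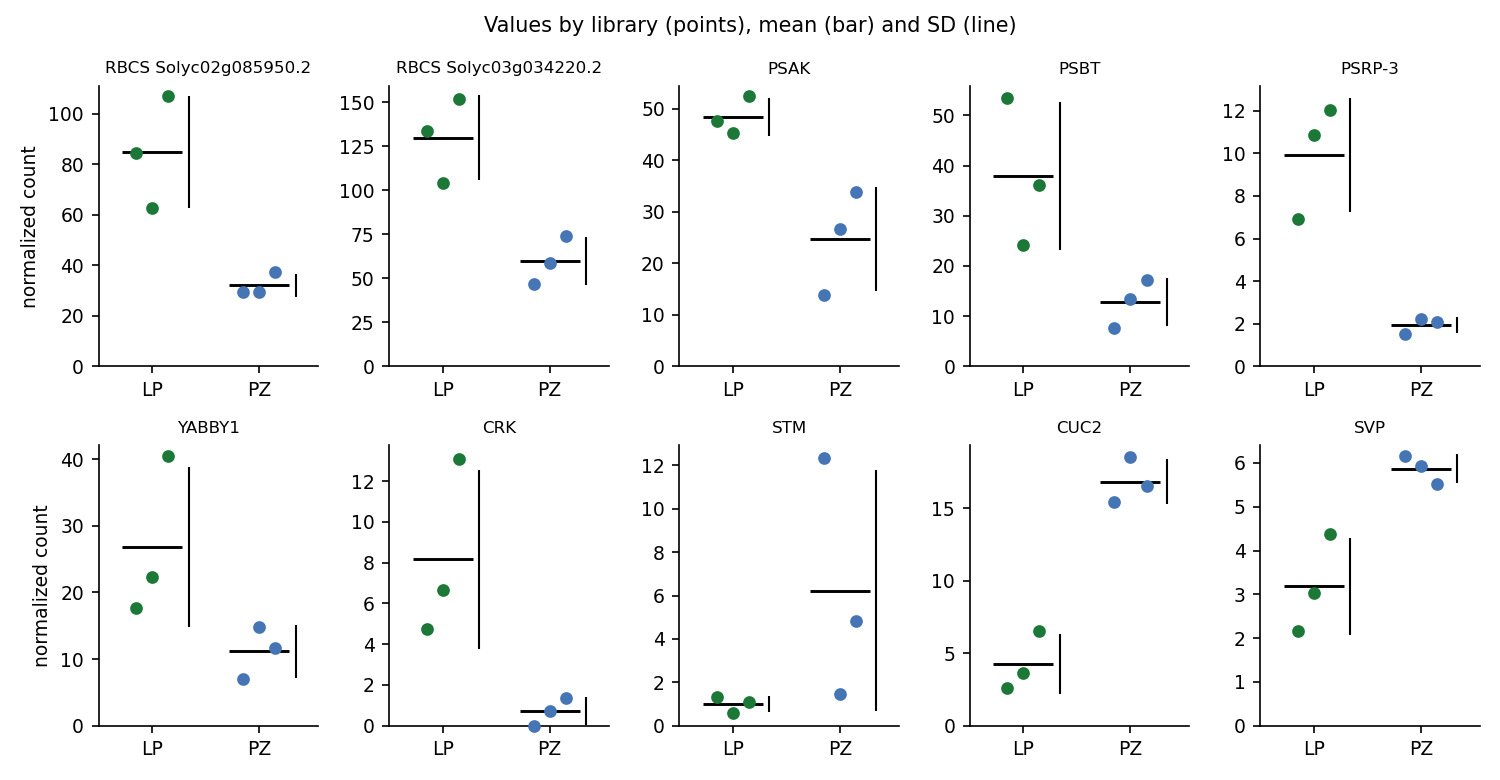
Normalized count (y axis) of 10 genes whose LP and PZ libraries do not overlap; points are libraries (LP left, PZ right, 3 each), bars the means and vertical lines the SD. RBCS, PSAK, PSBT, PSRP-3, YABBY1 and CRK are higher and STM, CUC2 and SVP lower in every LP library; only the RBCS genes were called.

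Defining markers went the way of the labels, but they come from the study's list, drawn up on these LP libraries. They are thus no independent check of the labels. STM and CUC2, of the meristem and its boundary, were lower in every LP library and not at 0 in any. YABBY1 was higher in every LP library, while YABBY3 was not separated. Of the 86 genes of the study's qPCR whose identifiers could be read here, chosen on these samples, 83 were tested. Of these, 12 were higher (14.5%) and 9 lower (10.8%) in all 3 LP libraries, where 5.39% and 5.33% of all genes were. Of the 83 genes 1 was called (0.139% over all genes), and the median was 0.06 (−0.04 over all genes).

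Apart from the listed plastid and developmental genes, descriptions were at hand for 97 of the tested genes, all on chromosome 1 or on unplaced sequence. Of these, 1 was higher (1.03%) and 15 lower (15.5%) in all 3 LP libraries, where 5.39% and 5.33% of all genes were. The log2 fold change was above 0 in 41 of the 97, with a median of −0.19 (−0.04 over all genes). None was called, and the adjusted p of the 16 ranged from 0.5 to 0.842. The higher one was aspartokinase Solyc01g005240.2, the entry enzyme of the aspartate family of amino acids, with 5.18, 6.03 and 4.37 in LP, against 0, 0.74 and 2.07 in PZ (1.82). Argonaute 4-like Solyc01g008960.2, of the family that directs DNA methylation by small RNAs, was lower, with 22.02, 43.45 and 28.40 in LP, against 55.51, 54.79 and 47.58 in PZ (−0.78, standard error 0.30, adjusted p = 0.5). Cyclin B1 Solyc01g009040.2, which drives entry into mitosis, had 2.16, 2.41 and 2.18 in LP, against 9.25, 2.96 and 2.76 in PZ, where PZ1 made most of the difference (−0.72). Downstream neighbor of SON Solyc01g006700.2, a DNA replication factor in animals, had 4.75, 3.62 and 1.09 in LP, against 8.48, 7.40 and 13.10 in PZ (−1.45). The RNA helicase gene Solyc01g005960.2 had 3.02, 4.22 and 3.28 in LP, against 5.40, 5.92 and 6.90 in PZ (−0.65). Of the 7 described genes matched by words for chromatin, DNA replication and cell division, 3 were lower (42.9%, against 15.5% of the described genes) and 0 higher in all LP libraries, with a median of −0.65. The match went by words only and took in RNA helicase genes, with Solyc01g005960.2 among the 3 lower. It left out Solyc01g006700.2, as the lowest member was at −1.25. The share thus does not stand for these functions alone. For 7 genes matched by words for translation the lower and higher counts were 0 and 0 (median 0.37), and for 4 of the cell wall 0 and 0 (0.46). Words for signalling matched 14 genes, of which 2 were lower and 1 higher (−0.10). The higher one was aspartokinase Solyc01g005240.2, the enzyme of amino acid synthesis named above. Words for transcription factors matched 4 genes, with 1 lower and 0 higher (−0.56). The lower one was the A20 and AN1 zinc finger gene Solyc01g014180.2, described as a stress-associated protein. Of 4 genes for mitochondria 1 was lower and 0 higher (0.09), and of 2 for plastids and their fatty acid synthesis 1 and 0 (−1.3).

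The remaining described genes that separated the zones were of mixed function. EPIDERMAL PATTERNING FACTOR-like 1 Solyc00g044350.2, from a family of secreted peptides that act on stomatal spacing and growth in Arabidopsis, had 1.73, 0 and 1.09 in LP, against 5.40, 7.40 and 4.14 in PZ (−1.87). Enoyl reductase Solyc01g006450.2, of fatty acid synthesis and also among the qPCR genes, had 2.59, 6.64 and 7.65 in LP, against 7.71, 29.61 and 13.10 in PZ (−1.33), a narrow gap between LP3 and PZ1. The other gene matched by words for plastids, acetyl-CoA carboxylase Solyc01g008330.2 of the same pathway, overlapped, with 3.89, 3.02 and 7.65 in LP, against 6.17, 22.21 and 13.10 in PZ (−1.26, adjusted p = 0.514). Peroxidase 1 Solyc01g007950.2 had 1.3, 1.21 and 0 in LP, against 6.17, 2.96 and 4.14 in PZ (−1.61). The 26S proteasome subunit Solyc01g008370.2 had 12.52, 7.24 and 5.46 in LP, against 13.88, 19.99 and 13.10 in PZ (−0.87), and cinnamoyl CoA reductase-like Solyc01g008550.2 had 7.34, 6.03 and 5.46 in LP, against 9.25, 11.85 and 13.79 in PZ (−0.79). The mitochondrial ATP synthase gene Solyc00g009020.2 differed by −0.74 and the A20 and AN1 zinc finger gene Solyc01g014180.2 by −0.81. A gene could separate the zones and still have 1 high library. Receptor-like kinase Solyc01g006520.2 had 0, 0.60 and 0 in LP, against 0.77, 11.85 and 0.69 in PZ (−1.53), and glutaredoxin Solyc01g009900.2 had 0.86, 0 and 0 in LP, against 1.54, 6.66 and 1.38 in PZ (−1.55), so PZ2 carried both. A membrane protein gene, Solyc01g010640.2 (−1.48), and a gene of unknown function, Solyc01g020320.2 (−2.06), completed the 15.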

How the data were processed

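CEL-Seq, a low-input method that tags the 3′ end of each transcript and amplifies it by in vitro transcription, was used for 3 libraries each of LP, PZ and CZ. The authors aligned 36 bp reads to tomato genome SL2.50 and the chloroplast genome (Bowtie2 2.1.0, local mode), counted them with a script based on HTSeq and used DESeq2 1.4.0. The deposited values are a signal, the authors' normalized counts, whose factor is not given in the sources used here. Dividing by 1 step per library returned whole reads for 100% of non-zero values (tolerance 0.0051). Depth was 40286 to 144665 reads per library, so weakly expressed genes are measured from a few reads.

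Genes with at least 6 in at least 1 LP or PZ library were tested with limma 3.58.1 (R 4.3.3) on log2(normalized count + 1), with zone as factor, all 9 libraries and a variance trend. p-values were adjusted by Benjamini and Hochberg over the 3601 genes, and genes were called at 0.05 and 1.5-fold. Fold changes on this scale understate those of low genes. Alternatives were pseudocounts of 0.5 and 2, other minimums, scaling to a common total or by TMM, tests of the recovered reads with edgeR 4.0.16 and DESeq2 1.42.0, no variance trend, only LP and PZ libraries, a replicate block and leaving out each library. Named are all called genes, the study's listed genes, described genes that separate the zones, at most 2 unnamed genes each way and the 3 largest each way that rest on 1 library. The counts of listed genes without single libraries and the fold bound without LP1 were added after seeing the data. The members, lists and kinds of change were chosen with earlier results of these data known. The authors' own fold changes were not used. Tools were Python 3.11.15, numpy 2.4.6, pandas 2.3.3, scipy 1.17.1 and matplotlib 3.10.9.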

Additional observations from a re-analysis of the deposited data

How the results depend on the processing

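Limma called 5 genes between LP and PZ. The number was 0 when a zone mean had to reach 6 (unadjusted p under 0.05: 93 higher and 68 lower), 0 by DESeq2 (115 and 95), 0 with no variance trend (146 and 134), 25 by edgeR (14 higher, 11 lower), 9 with only LP and PZ libraries and 13 with a replicate block (8 higher, 5 lower). Leaving out a library gave 0 (without LP1; 111 higher and 108 lower at an unadjusted p under 0.05) to 8 (without CZ3). Other alternatives gave 4 to 7. The cause of these shifts was not tested. Same-numbered LP and PZ libraries correlated in their deviations from the zone means by 0.044, 0.123 and 0.061. Differently numbered ones correlated by −0.099 to 0.044, so the same-numbered values were small but not below those of the rest. The main fit did not take the numbers as pairs, and whether they mark a shared origin was not tested. Changes in all 3 libraries numbered 386, against 228 with the minimum on zone means and 1281 with no filter, which test 1720 and 20768 genes, and 602 to 665 without a library, where fewer libraries have to separate. Changes resting on 1 library numbered 879, against 342 and 3189 with these filters and 776 to 889 without a library. Over the alternatives, 96 named genes had 1971 values, of which 1919 kept their direction and side of the threshold. The 34 lost calls all fell on the 5 called genes. A call was gained 14 times over 9 genes, 7 times by 3 genes changed in all 3 libraries (CUC2, PSBT and Solyc02g083860.2) and 7 times by the 6 genes with the largest change resting on 1 library, mainly by edgeR. The sign turned 4 times over 2 genes under 1.5-fold, where leaving out a library gave −0.09 to 0.77 for LHCB1.3 Solyc03g005770.1 and −0.29 to 1.07 for clpP. Where the zones do not overlap, leaving out a library cannot turn the sign. In the study's lists the signs of the medians held under both other scalings. Since a value of 0 allows up to 3 reads, differences under 1.29 to 3.28 normalized counts in LP and 2.07 to 2.31 in PZ were not resolved for genes at 0.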
